A study of Mus musculus with 4 samples.

Results

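The 126 genes described here lie on chromosome 6 of the mouse genome (GRCm38), with a start from 80 to under 95 Mb. They were chosen by that position and by a mean raw count of at least 10 per library, and Hk2, Tet3 and genes with symbols starting with Nduf were left out. The window itself had been drawn on the log2 fold changes between the genotypes compared below, so these fold changes are given as a description, without a test, and nothing is read from them about the choice of the window. Of the 24116 genes in the count table, 14697 averaged at least 10 counts, and 126 of these were members. The window held 199 genes of the table, of which 71 had a lower mean count and 2, Hk2 and Tet3, were left out by name.

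The RNA-seq data came from mouse embryonic stem cells (ESCs) on the C57BL/6 background, either wild type (WT) or lacking Terc, the RNA template of telomerase, in the third generation (G3 Terc-/-). Each genotype was represented by 1 line, labelled G3 WT N12 and G3 Terc-/- F35, with 2 libraries per line that the study's methods call biological replicates. All cells grew on feeder cells in medium with serum and leukemia inhibitory factor, and libraries were made from poly(A) RNA. Genotype and line therefore cannot be told apart, and RNA of feeder cells could be part of each library.

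Genes along a chromosome are mostly unrelated in function, and neighbours share little beyond their place on the DNA molecule and sometimes a promoter region. The window holds housekeeping genes for DNA replication, splicing, protein folding and secretion beside genes restricted to certain tissues, such as the homeobox gene Vax2 of the developing eye, the vomeronasal receptor genes and Trh, which encodes the precursor of thyrotropin-releasing hormone. Several of its housekeeping genes encode single subunits of complexes whose other subunits are encoded on other chromosomes, so that the partners give a measurement of the same complex outside the window.

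The depth was 22057607 and 22520017 gene counts for WT, against 21898081 and 18047995 for the knockout. Terc, on chromosome 3, was counted 7 and 2 times in WT and 0 times in either knockout library, a result that allows up to 3 counts per library. This limit, like the interval given for Nat8f2, covers counting error only. Levels are given as CPM, counts scaled to a common library size after normalization by the trimmed mean of M values (TMM), with the first library of a genotype named first. Fold changes compare G3 Terc-/- with WT on the log2 scale and come from an edgeR fit across 14896 genes.

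The ESC identity of the samples was checked on 12 pluripotency genes, each of which was detected in all 4 libraries. Their summed level was 6532 and 6650.5 CPM in WT and 8361 and 8744 CPM in G3 Terc-/-. The one with the most counts over the 4 libraries was Tdgf1, a coreceptor of Nodal, and Pou5f1, the core pluripotency factor, had 932 and 934 CPM in WT and 1209 and 1223 CPM in G3 Terc-/-. By edgeR (quasi-likelihood test, Benjamini-Hochberg), 10 of the 12 were higher and 2 lower in G3 Terc-/- ESCs, beside 21.7% and 21.8% of all genes tested.

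Most members were higher in G3 Terc-/- than in WT ESCs. The median log2 fold change of the 126 members was 0.49, with quartiles of 0.20 and 0.76, and 111 of them (88.1%) lay above 0, beside 50.8% of all genes tested. Hmces and Asprv1, a skin protease, were at 0.00 and lay below 0 with the size factors of DESeq2. Over all 14896 genes tested the median was 0.01. Relative to the WT mean of each gene, the median member stood at 0.01 and -0.01 (log2) in WT, against 0.50 and 0.49 in the knockout, so that both G3 Terc-/- libraries lay above both WT libraries. At an adjusted p under 0.05, 83 members were counted as higher and 5 as lower, beside 21.7% and 21.8% of all genes tested. With a fold change over 2 and an unadjusted p under 0.05, the counts were 21 higher and 2 lower, beside 4.73% and 3.13% of all genes. In 99 members both G3 Terc-/- libraries were above both WT libraries in CPM, which was so for 35.5% of all genes tested. These counts were fixed in part by the choice of the window.

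The fold changes of the members had a standard deviation of 0.77, beside 0.61 over all genes tested, so that the members were not closer to each other than genes in general. Of the members, 21 were above 1, and 15 were below 0, 6 of them below -0.25. Among the 58 members averaging at least 500 counts the median was 0.53, beside -0.03 for all genes of that abundance. Among the 37 members with 100 to under 500 counts it was 0.35, and among the 31 members under 100 counts 0.71, where all genes of that abundance had a median of 0.13 and single values were less precise.

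Together the members held 0.712% and 0.703% of all gene counts in WT, against 1.06% and 1.04% in the knockout. Without the 10 members with the most counts, the shares were 0.347% and 0.342% in WT, against 0.480% and 0.474% in the knockout. Trh alone made up 2.18% and 2.06% of the members' counts in WT, against 7.62% and 8.31% in the knockout. The higher share in the knockout was thus also present among less abundant members.

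The direction differed between positions within the window. The first member started at base 81910562, and the 4 members nearest the lower edge had log2 fold changes below 0. Gcfc2, a splicing-related factor, had 25.4 and 24.7 CPM in WT and 11.3 and 10.2 CPM in G3 Terc-/-, a log2 fold change of -1.22 (standard error 0.10). Its neighbour Mrpl19, a protein of the large mitochondrial ribosomal subunit, had 56.3 and 58.3 CPM in WT and 27.3 and 28.6 CPM in G3 Terc-/- and a log2 fold change of -1.04 (standard error 0.07). The annotated exons of these neighbours share 1962 bases on opposite strands, and since the strand setting of the counting was not stated, reads of the shared stretch cannot be told apart. Eva1a, a regulator of autophagy, was at 2.11 and 2.21 CPM in WT and 1.35 and 1.70 CPM in G3 Terc-/-, with a log2 fold change of -0.51 (standard error 0.28). The fourth, Pole4, is described with its complex.

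From Sema4f onwards, a limit chosen after the values were seen, most members were higher. Sema4f, a semaphorin, had 5.04 and 5.28 CPM in WT and 5.19 and 6.03 CPM in G3 Terc-/-, with overlapping genotypes. In the gene-dense stretch from 83 to 84 Mb, 23 of 29 members were above 0 and the median log2 fold change was 0.27. The median was 0.75 over the 16 members from 85 to 86 Mb, 0.54 over the 17 from 86 to 87 Mb, 0.50 over the 13 from 87 to 88 Mb and 0.56 over the 11 from 88 to 89 Mb. It reached 1.19 over 6 members from 90 to 91 Mb and 1.02 over 6 members from 92 to 93 Mb, with 0.57 over the 13 members between them. The 6 members from 90 to 91 Mb ranged from 0.34 to 2.18, with none between 0.67 and 1.71, so that no member lay near their median. Only 3 members started beyond 93 Mb, with a median of 0.28.

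**Figure D1:**
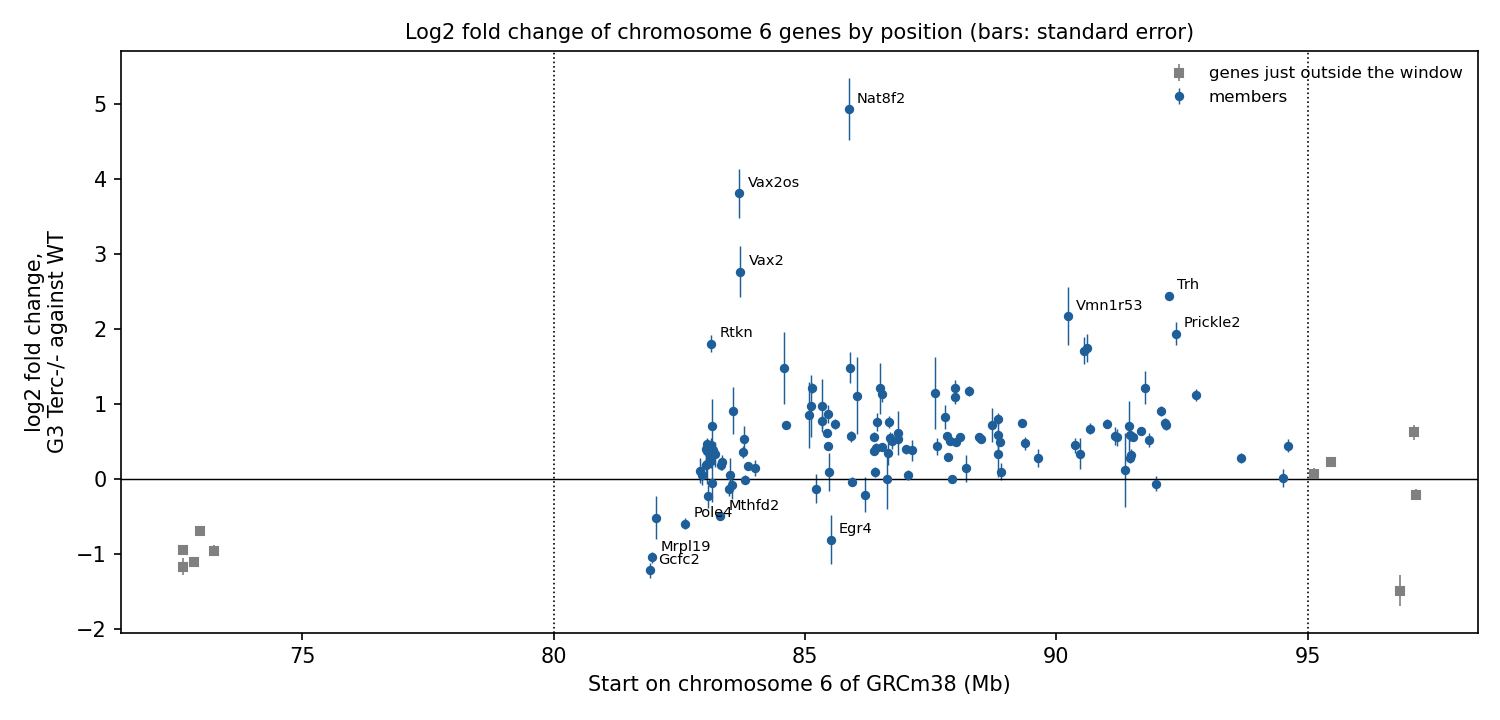
Log2 fold change of G3 Terc-/- against WT ESCs (vertical axis) by gene start on chromosome 6 of GRCm38 in Mb (horizontal axis), for the 126 members and the 5 genes nearest to each edge outside the window, with bars for the standard error and dotted lines at 80 and 95 Mb. The 4 members nearest the lower edge lie between -1.22 and -0.51, and most members from Sema4f on lie above 0.

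The nearest genes outside the window that reached the count minimum lay at unequal distances. Below the lower edge, the nearest gene to average at least 10 counts was Suclg1, a subunit of succinyl-CoA ligase that starts at 73.2 Mb, far from the first member at 81.9 Mb. It had 85.8 and 96.7 CPM in WT and 46.2 and 48.3 CPM in G3 Terc-/-. Its difference on the log2 scale was -0.95 (standard error 0.07), and those of Tmsb10, Kcmf1, Gm15401 and Tcf7l1 were -0.68, -1.11, -1.16 and -0.94. Like the 4 members nearest the lower edge, these genes had log2 fold changes below 0, but none of them adjoins the window. Of these 4 members, 3 were counted as lower by adjusted p, and Eva1a was not. The 5 members inside the upper edge were Prickle2, Adamts9, Magi1, Slc25a26 and Lrig1. Magi1, a scaffold protein of cell junctions, had 65.8 and 59.5 CPM in WT and 76.1 and 75.8 CPM in G3 Terc-/- (log2 fold change 0.28). Slc25a26, the mitochondrial carrier of S-adenosylmethionine, had 12.5 and 15.6 CPM in WT and 13.2 and 15.3 CPM in G3 Terc-/-, without a separation of the genotypes. Lrig1, which restrains growth factor receptors, had 19.8 and 18.6 CPM in WT and 27.1 and 25.2 CPM in G3 Terc-/- (log2 fold change 0.45). Above the upper edge, Kbtbd8, which starts at 95.1 Mb, had a log2 fold change of 0.07, Suclg2 of 0.22, Tafa4 of -1.48, Eogt of 0.63 and Tmf1 of -0.21, with no common direction.

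At the count minimum, the members just inside were Add2, a subunit of the membrane skeleton protein adducin, with 5 and 10 counts in WT and 14 and 16 counts in G3 Terc-/-, and Wnt7a, a Wnt ligand, with 8 and 15 counts in WT and 13 and 10 counts in G3 Terc-/-. Just outside were the vomeronasal receptor genes Vmn1r47, with 2 and 4 counts for WT against 17 and 13 for the knockout, and Vmn1r48, with 0 and 2 counts for WT against 18 and 14 for the knockout. The third gene below the minimum was 1810020O05Rik, with 6 and 2 counts for WT against 13 and 12 for the knockout. A minimum on the mean of all libraries admits a gene with few counts in 1 genotype, and 6 members had a mean under 10 counts in WT, but none in G3 Terc-/-. Of the pair left out by name, Hk2 was lower, with a log2 fold change of -1.48 (standard error 0.05). That of Tet3 was 0.11 (standard error 0.12), which is within its error. Hk2, a hexokinase of glycolysis that lies between Pole4 and Sema4f, had 274 and 273 CPM in WT and 100.0 and 95.4 CPM in G3 Terc-/-, and Tet3, a 5-methylcytosine dioxygenase, had 10.4 and 11.3 CPM in WT and 11.9 and 11.5 CPM in G3 Terc-/-.

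Members were grouped by function with lists written from general knowledge, which are not complete, so that counts, medians and extremes of a group hold for its list alone. H1f10, a linker histone, and Mrps25, a protein of the small mitochondrial ribosomal subunit, are examples outside the lists, named after their values were seen, with log2 fold changes of 1.09 and 0.75. The exons of Mrps25 share 4590 bases with another gene, so that its reads are uncertain. Of the 11 members listed for DNA replication, repair and chromatin, 9 were above 0, 1 of them, Hmces, at 0.00, with a median log2 fold change of 0.32. Mcm2, a subunit of the replicative helicase, had 563 and 563 CPM in WT and 820.1 and 766 CPM in G3 Terc-/- and a log2 fold change of 0.49 (standard error 0.05). Ruvbl1, an ATPase of several chromatin remodelling complexes, was at 163 and 168 CPM in WT and 250.3 and 239 CPM in G3 Terc-/-, a log2 fold change of 0.56 (standard error 0.05). Smyd5, a methyltransferase of the SET and MYND family, had the highest fold change on this list, 0.61 (standard error 0.06), with 126 and 119.9 CPM in WT and 196 and 179 CPM in G3 Terc-/-.

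Hdac11, named after its values were seen, lay between Ruvbl1 and Smyd5 at 0.57 on the log2 scale. The remaining members of this list differed less than Mcm2 or were lower. Xpc, which recognises helix-distorting lesions for nucleotide excision repair, had 35.3 and 36.1 CPM in WT and 45.9 and 43.5 CPM in G3 Terc-/- (log2 fold change 0.32, standard error 0.07). Ino80b, a subunit of the INO80 remodelling complex, was at 17.9 and 17.5 CPM in WT and 20.8 and 21.1 CPM in G3 Terc-/-, a log2 fold change of 0.25 (standard error 0.09). For Hmces, which binds abasic sites in single-stranded DNA, the values were 128 and 125 CPM in WT and 129.6 and 124 CPM in G3 Terc-/-, so that the genotypes overlapped and the log2 fold change was 0.00. The 2 members below 0 were Pole4 and Pcgf1. Pole4, a histone-fold subunit of DNA polymerase epsilon, had 51.6 and 55.3 CPM in WT and 35.3 and 35.8 CPM in G3 Terc-/- and a log2 fold change of -0.59 (standard error 0.07). Pcgf1, a subunit of the variant Polycomb complex PRC1.1, had 8.61 and 7.08 CPM in WT and 7.53 and 5.76 CPM in G3 Terc-/-, with overlapping genotypes and a log2 fold change of -0.23 (standard error 0.16).

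The 11 members listed for mitochondrial functions had the lowest median of the lists, 0.23, and 7 of them were above 0. Mthfd2, an enzyme of mitochondrial folate metabolism, was an exception within the mostly higher stretch, at 165 and 159 CPM in WT and 117 and 113 CPM in G3 Terc-/- with a log2 fold change of -0.49 (standard error 0.05). The 5' end of its gene lies 23 bases from that of Mob1a on the other strand, a Hippo pathway scaffold named after its values were seen, whose log2 fold change was 0.19 (standard error 0.07) with 36.1 and 36.1 CPM in WT and 40.2 and 42.6 CPM in G3 Terc-/-. The 2 genes of this divergent pair therefore differed in opposite directions. Dguok, the mitochondrial deoxyguanosine kinase, had 17.7 and 17.9 CPM in WT and 16.1 and 16.6 CPM in G3 Terc-/- (log2 fold change -0.12, standard error 0.10), and Sfxn5, a sideroflexin of the inner membrane, had 4.08 and 4.47 CPM in WT and 3.92 and 3.89 CPM in G3 Terc-/- (log2 fold change -0.13, standard error 0.19). Among the higher ones, Chchd6, a subunit of the complex that shapes cristae, had 19.4 and 18.9 CPM in WT and 27.4 and 25.9 CPM in G3 Terc-/- and the highest log2 fold change on this list, 0.48 (standard error 0.09).

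RNA processing and translation were represented by 11 listed members, 8 of them above 0, with a median log2 fold change of 0.43. Eefsec, the elongation factor that delivers selenocysteine to the ribosome, had the highest value on the list, 1.17 (standard error 0.07), with 38.1 and 38.7 CPM in WT and 88.3 and 85.1 CPM in G3 Terc-/-. Snrpg, a protein of the Sm ring, was at 69.9 and 65.3 CPM in WT and 103 and 96.7 CPM in G3 Terc-/-, and Lsm3, of the related LSM ring, was at 65.8 and 62.4 CPM in WT and 91.6 and 98.4 CPM in G3 Terc-/-. Both had a log2 fold change of 0.57, with a standard error of 0.06 for each. Tprkb, of the KEOPS complex that modifies transfer RNAs, had 31.4 and 30.4 CPM in WT and 43.9 and 48.1 CPM in G3 Terc-/- and a log2 fold change of 0.57 (standard error 0.08). Pcbp1, a poly(C)-binding protein with the highest level per length in WT of the 117 members with known exon length, had 486 and 494 CPM in WT and 669 and 652 CPM in G3 Terc-/- (log2 fold change 0.43, standard error 0.05). Those below 0 were Gcfc2 and, named after their values were seen, Dusp11, an RNA phosphatase, with 94.2 and 95.1 CPM in WT and 90.1 and 94.7 CPM in G3 Terc-/-, and Paip2b, an inhibitor of the poly(A)-binding protein, with 117 and 125 CPM in WT and 117 and 124 CPM in G3 Terc-/-. In Dusp11 and Paip2b the genotypes overlapped, and Paip2b lay at 0.04 without WT replicate 2 and at 0.03 without G3 replicate 1.

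The secretory, trafficking and folding list had the smallest spread of the lists, with 13 of 14 members above 0, a median log2 fold change of 0.50 and a standard deviation of 0.23 between members, against 0.77 for all 126 members. Cct7, a subunit of the cytosolic chaperonin, was the most abundant per length on this list and had 758 and 752 CPM in WT and 1065 and 993 CPM in G3 Terc-/-, a log2 fold change of 0.45 (standard error 0.05). Sec61a1, the pore of the endoplasmic reticulum translocon, had 206 and 214 CPM in WT and 303 and 303 CPM in G3 Terc-/- (log2 fold change 0.53, standard error 0.05). Rpn1, a subunit of oligosaccharyltransferase, was at 233 and 232 CPM in WT and 341 and 345 CPM in G3 Terc-/-, a log2 fold change of 0.56 (standard error 0.05). Rpn1 and Sec61a1 lie near each other in the window and Cct7 lies further away, and these 3 genes had fold changes of like size.

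Further along the secretory route, Copg1 of the COPI coat had 179 and 178 CPM in WT and 266 and 244 CPM in G3 Terc-/-, with a log2 fold change of 0.51 (standard error 0.05). Dctn1, the large subunit of the dynein activator dynactin, had 100.2 and 98.9 CPM in WT and 134 and 127 CPM in G3 Terc-/- (log2 fold change 0.39, standard error 0.06). Rab7, a GTPase of late endosomes, was at 259 and 249.9 CPM in WT and 357 and 361 CPM in G3 Terc-/-, a log2 fold change of 0.50 (standard error 0.05). Rab43, a Golgi GTPase, had the highest log2 fold change on the list, 0.83 (standard error 0.16), at 5.54 and 4.42 CPM in WT and 9.42 and 8.17 CPM in G3 Terc-/-, but its annotated exons share 4164 bases with another gene, so that its reads are uncertain. Stambp, a deubiquitinase of endosomes, was the single listed member below 0, with 4.85 and 5.14 CPM in WT and 5.41 and 4.001 CPM in G3 Terc-/- and overlapping genotypes, and it lay at 0.12 without G3 replicate 2.

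All 11 members listed for metabolism and transport were above 0, with a median log2 fold change of 0.65. Slc41a3, a magnesium transporter, had 2.29 and 2.21 CPM in WT and 7.44 and 7.73 CPM in G3 Terc-/-, a log2 fold change of 1.75 (standard error 0.19). Aldh1l1, a folate enzyme that oxidises formyl-tetrahydrofolate, lies next to it and had 3.30 and 2.44 CPM in WT and 9.83 and 8.93 CPM in G3 Terc-/- (log2 fold change 1.71, standard error 0.18). The taurine transporter gene Slc6a6, the most abundant of the list per length in WT, was at 157 and 158 CPM in WT and 251 and 241 CPM in G3 Terc-/-, a log2 fold change of 0.65 (standard error 0.05). The lowest was Gfpt1, which starts the hexosamine pathway, with 46.4 and 45.1 CPM in WT and 48.8 and 46.0 CPM in G3 Terc-/- and overlapping genotypes. Spr, sepiapterin reductase of tetrahydrobiopterin synthesis, was singled out after its values were seen, with 47.3 and 44.5 CPM in WT and 105 and 108 CPM in G3 Terc-/- and a log2 fold change of 1.22 (standard error 0.06).

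Among 19 members listed for signalling, adhesion and matrix, 18 were above 0 and the median log2 fold change was 0.45. Prickle2, a planar cell polarity protein, had 3.48 and 3.07 CPM in WT and 11.995 and 13.2 CPM in G3 Terc-/- and a log2 fold change of 1.94 (standard error 0.16). Rtkn, which binds the GTPase RhoA, had 6.87 and 9.34 CPM in WT and 27.5 and 29.3 CPM in G3 Terc-/- (log2 fold change 1.81, standard error 0.11). In GENCODE M21 its exons share 1778 annotated bases with Wdr54 on the other strand, though the RefSeq spans of these genes do not overlap. Wdr54, named after its values were seen, had 3.34 and 2.26 CPM in WT and 2.89 and 2.47 CPM in G3 Terc-/- and overlapping genotypes. Adamts9, a secreted metalloprotease, was at 20.0 and 19.4 CPM in WT and 42.3 and 43.8 CPM in G3 Terc-/-, a log2 fold change of 1.13 (standard error 0.08). Plxna1, a semaphorin receptor and the most abundant of the list per length, had 163 and 152 CPM in WT and 267 and 260.1 CPM in G3 Terc-/- (log2 fold change 0.75, standard error 0.05). The lowest was Tgfa, a ligand of the epidermal growth factor receptor, at 3.16 and 3.16 CPM in WT and 2.21 and 3.34 CPM in G3 Terc-/-, where 1 G3 Terc-/- library lay below and 1 above the WT libraries, and without G3 replicate 1 its log2 fold change was 0.08.

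Of 11 listed transcription factor genes in the window, 6 reached the count minimum and 5 did not, namely Emx1, Tlx2, Lbx2, Noto and Figla. Vax2, a homeobox factor of the ventral eye, had 0.458 and 0.451 CPM in WT and 3.07 and 3.18 CPM in G3 Terc-/-, a log2 fold change of 2.76 (standard error 0.34) on 10 and 10 counts in WT and 68 and 58 counts in G3 Terc-/-. Egr4, an early growth response factor, was the lowest, with 1.56 and 1.89 CPM in WT and 1.13 and 0.822 CPM in G3 Terc-/- and a log2 fold change of -0.80 (standard error 0.33). Zxdc, a zinc finger factor and the most abundant of the list per length in WT, had 14.9 and 15.8 CPM in WT and 21.5 and 20.5 CPM in G3 Terc-/- (log2 fold change 0.45, standard error 0.10). Gata2, a factor of blood progenitors named after its values were seen, had 4.67 and 4.56 CPM in WT and 5.55 and 4.60 CPM in G3 Terc-/-, and the genotypes overlapped. With so few counts, the values of Vax2 and Egr4 carry wide errors.

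The complexes with a subunit in the window allowed a comparison with partner genes that the rule had not chosen. The 13 complexes had 14 subunit genes in the window and 81 partner genes elsewhere, 77 of them on other chromosomes. The median log2 fold change was 0.50 for the 14 window genes, 12 of which were above 0, and -0.03 for the 77 partners on other chromosomes. By adjusted p (edgeR, quasi-likelihood, Benjamini-Hochberg over all genes tested), 15 of the 81 partners (18.5%) were higher and 22 (27.2%) were lower, beside 21.7% and 21.8% of all genes. Without WT replicate 1, as without WT replicate 2, these counts were 7 and 12. In 11 of the 13 complexes the window gene with the highest fold change lay above every partner. The difference between window genes and partners was not tested, since the window genes were selected on this contrast.

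The replicative helicase is a ring of single copies of Mcm2 to Mcm7. Beside 0.49 for Mcm2, the 5 partners had log2 fold changes from -0.08 to 0.17. Mcm5, with 483 and 478 CPM in WT and 566 and 512 CPM in G3 Terc-/-, was the single one past an adjusted p of 0.05 (log2 fold change 0.17, adjusted p = 0.00606, edgeR). It missed that threshold without WT replicate 1 (0.17), without WT replicate 2 (0.16) and without G3 replicate 1 (0.09), fold changes in brackets. Mcm3 had 554 and 548 CPM in WT and 537 and 505 CPM in G3 Terc-/-, lower in both knockout libraries but not past the threshold (log2 fold change -0.08, adjusted p = 0.182, edgeR). For the chaperonin, Cct7 stood at 0.45 and its 7 partners ranged from -0.20 to 0.02. Cct2, the lowest, had 845 and 893 CPM in WT and 751 and 767 CPM in G3 Terc-/- (adjusted p = 0.000771, edgeR), a call that was lost without WT replicate 2 (-0.16), and Cct6a, the highest, had 912 and 933 CPM in WT and 911 and 960.4 CPM in G3 Terc-/-.

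The rings that bind uridine-rich RNA gave a like picture with an exception on chromosome 6 itself. The 6 partners of Snrpg in the Sm ring ranged from -0.23 to 0.12, and the lowest, Snrpb, had 226 and 221 CPM in WT and 193 and 188 CPM in G3 Terc-/- (adjusted p = 0.000236, edgeR). In the LSM ring, Lsm3 was at 0.57, and 4 partners on other chromosomes lay between -0.05 (Lsm2) and 0.26 (Lsm6). The partners Lsm5 and Lsm8 lie elsewhere on chromosome 6 and were lower. Lsm5 had 24.8 and 27.4 CPM in WT and 12.8 and 14.0 CPM in G3 Terc-/-, which is -0.96 (standard error 0.10) on the log2 scale (adjusted p = 5.03e-11, edgeR). Lsm8 had 50.2 and 45.4 CPM in WT and 23.6 and 27.5 CPM in G3 Terc-/-, which is -0.91 (standard error 0.08) on the log2 scale (adjusted p = 1.37e-12, edgeR). Subunits of 1 ring encoded on the same chromosome thus went in both directions. Lsm5 lies in the stretch of chromosome 6 from 45 to 80 Mb. There 102 of 129 genes tested (79.1%) were counted as lower, beside 21.8% of all genes, and the median log2 fold change was -0.90, near that of Lsm5.

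In the secretory complexes, partners of Sec61a1 were Sec61b, with 59.3 and 54.3 CPM in WT and 54.0 and 55.5 CPM in G3 Terc-/-, and Sec61g, with 71.9 and 71.9 CPM in WT and 59.3 and 59.5 CPM in G3 Terc-/-. Sec61g was lower (log2 fold change -0.28, standard error 0.06, adjusted p = 0.000552, edgeR). The 9 partners of Rpn1 ranged from -0.20 to 0.32, the highest being Tusc3 with 21.3 and 19.6 CPM in WT and 24.7 and 26.4 CPM in G3 Terc-/- (adjusted p = 0.00321, edgeR), a call lost under DESeq2 (0.32) and without WT replicate 2 (0.26). The 8 partners of Copg1 ranged from -0.42 to 0.08. Among them, Copg2, a paralog of Copg1 on chromosome 6 outside the window, had 123 and 119 CPM in WT and 94.97 and 101 CPM in G3 Terc-/- and was lower (log2 fold change -0.31, standard error 0.06, adjusted p = 2.49e-05, edgeR). The 8 partners of Dctn1 in dynactin ranged from -0.22 to 0.17, with Actr1a (log2 fold change -0.22, adjusted p = 0.00314, edgeR) and Dctn5 (log2 fold change -0.18, adjusted p = 0.0424, edgeR) lower and Actr1b higher (log2 fold change 0.17, adjusted p = 0.0158, edgeR). The call of Actr1a was lost without WT replicate 1 (-0.20). That of Dctn5 was lost under DESeq2 (-0.18), with a mean of at least 50 counts (-0.17), without WT replicate 1 (-0.13), without WT replicate 2 (-0.23) and without G3 replicate 2 (-0.13), and that of Actr1b under DESeq2 (0.17), without WT replicate 1 (0.18), without WT replicate 2 (0.16) and without G3 replicate 1 (0.08).

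In chromatin and repair complexes, the 12 INO80 partners ranged from -0.23 to 0.33, below Ruvbl1 at 0.56, while Ino80b at 0.25 was below Ino80c at 0.33. Ruvbl2, which forms a ring with Ruvbl1, had 342 and 326 CPM in WT and 380.3 and 334 CPM in G3 Terc-/- and did not pass the threshold (log2 fold change 0.10, adjusted p = 0.128, edgeR). Of the partners of Xpc, Rad23b, which stabilises it, was lower, with 627 and 666 CPM in WT and 535 and 575 CPM in G3 Terc-/- (log2 fold change -0.22, adjusted p = 0.000316, edgeR), a call lost without WT replicate 2 (-0.18), and Cetn2 had a log2 fold change of -0.05. The 4 KEOPS partners of Tprkb ranged from -0.17 to 0.29, where the upper end is Trp53rkb, matched to the listed Trp53rk through a synonym only, and the next was Lage3 at 0.19.

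The 2 remaining complexes differed from the others. In DNA polymerase epsilon, where the window gene Pole4 was lower (-0.59), the catalytic subunit Pole was also lower, at 188 and 199 CPM in WT and 163 and 159.8 CPM in G3 Terc-/- (log2 fold change -0.26, adjusted p = 6.23e-05, edgeR). Pole2 and Pole3 were higher, with log2 fold changes of 0.35 (adjusted p = 0.000216) and 0.21 (adjusted p = 0.0282), also from edgeR. The call of Pole3 was lost under DESeq2 (0.21), with no filter (0.20), without WT replicate 1 (0.18), without WT replicate 2 (0.23) and without G3 replicate 1 (0.20). In PRC1.1, with Pcgf1 at -0.23, 5 of 9 partners were higher and 3 lower. Without WT replicate 2, the calls of Rybp (-0.10), Usp7 (-0.12) and Ring1 (0.28) were lost, and without WT replicate 1 that of Rnf2 (0.16), with log2 fold changes in brackets. The call of Rybp was also lost under DESeq2 (-0.15). Kdm2b, which recruits the complex to CpG islands, had 121 and 126 CPM in WT and 184 and 177 CPM in G3 Terc-/- (log2 fold change 0.55, adjusted p = 1.87e-11, edgeR). Bcorl1, a corepressor, had 6.73 and 5.91 CPM in WT and 13.8 and 13.8 CPM in G3 Terc-/- (log2 fold change 1.13, adjusted p = 2.11e-09, edgeR).

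**Figure D2:**
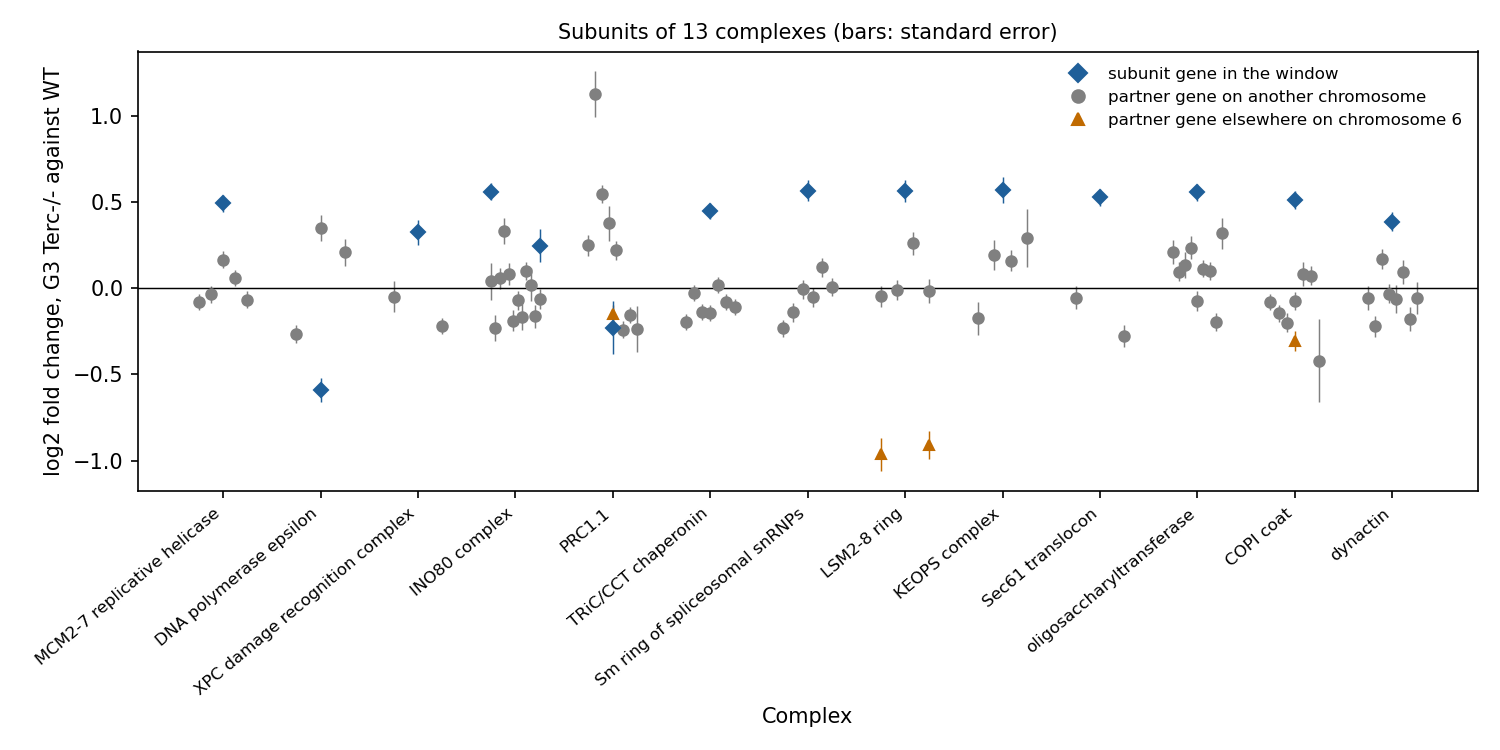
Log2 fold change of G3 Terc-/- against WT ESCs (vertical axis) for the subunits of 13 complexes (horizontal axis), with diamonds for genes in the window, circles for partners on other chromosomes, triangles for partners elsewhere on chromosome 6 and bars for the standard error. In 11 complexes the highest diamond lies above every partner, and the triangles of Lsm5 (-0.96) and Lsm8 (-0.91) are the lowest points.

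The largest fold change among the 58 members averaging at least 500 counts was that of Trh (gene identifier 22044, chromosome 6 from 92242061 to 92244650), which had 3431 and 3258 counts in WT and 17647 and 15677 counts in G3 Terc-/-. These were 157 and 147 CPM in WT and 796 and 859 CPM in G3 Terc-/-, a log2 fold change of 2.44 (standard error 0.05). In CPM per kb of exon, Trh was at 109.8 in WT and 598 in G3 Terc-/-, the highest in the knockout of the 117 members with known exon length. The long non-coding RNA Vax2os, whose gene span overlaps that of Vax2 on the other strand, had 0.366 and 0.316 CPM in WT and 5.37 and 4.28 CPM in G3 Terc-/- and a log2 fold change of 3.81 (standard error 0.32) on 8 and 7 counts in WT and 119 and 78 counts in G3 Terc-/-. The annotated exons of Vax2 share no base with another gene. Nat8f4, of a family of N-acetyltransferase genes, had 1.79 and 2.39 CPM in WT and 6.00 and 5.70 CPM in G3 Terc-/- (log2 fold change 1.48, standard error 0.21). Grip2, a scaffold protein of glutamate receptors, had 1.97 and 2.12 CPM in WT and 4.24 and 5.37 CPM in G3 Terc-/- (log2 fold change 1.22, standard error 0.22).

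A paralog of Nat8f4, Nat8f2, was singled out after its values were seen. It had 2 and 4 counts in WT and 81 and 93 counts in G3 Terc-/-, and since the WT libraries held few counts, the ratio of the summed counts is given with its interval, 31.6 (exact 95% interval 14.2 to 87.2, counting error only). The family members are similar in sequence, and the division of reads between them is uncertain. Also singled out afterwards were H1f10, a linker histone gene, with 20.4 and 28.2 CPM in WT and 49.4 and 54.6 CPM in G3 Terc-/- (log2 fold change 1.09, standard error 0.09), and the non-coding Gm5577, whose 5' end lies 201 bases away on the other strand, with 12.1 and 18.5 CPM in WT and 34.0 and 37.2 CPM in G3 Terc-/- (log2 fold change 1.22, standard error 0.11). Both genes of this divergent pair were higher, but the exons of H1f10 share 237 bases with another gene, so that the division of reads is uncertain.

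**Figure D3:**
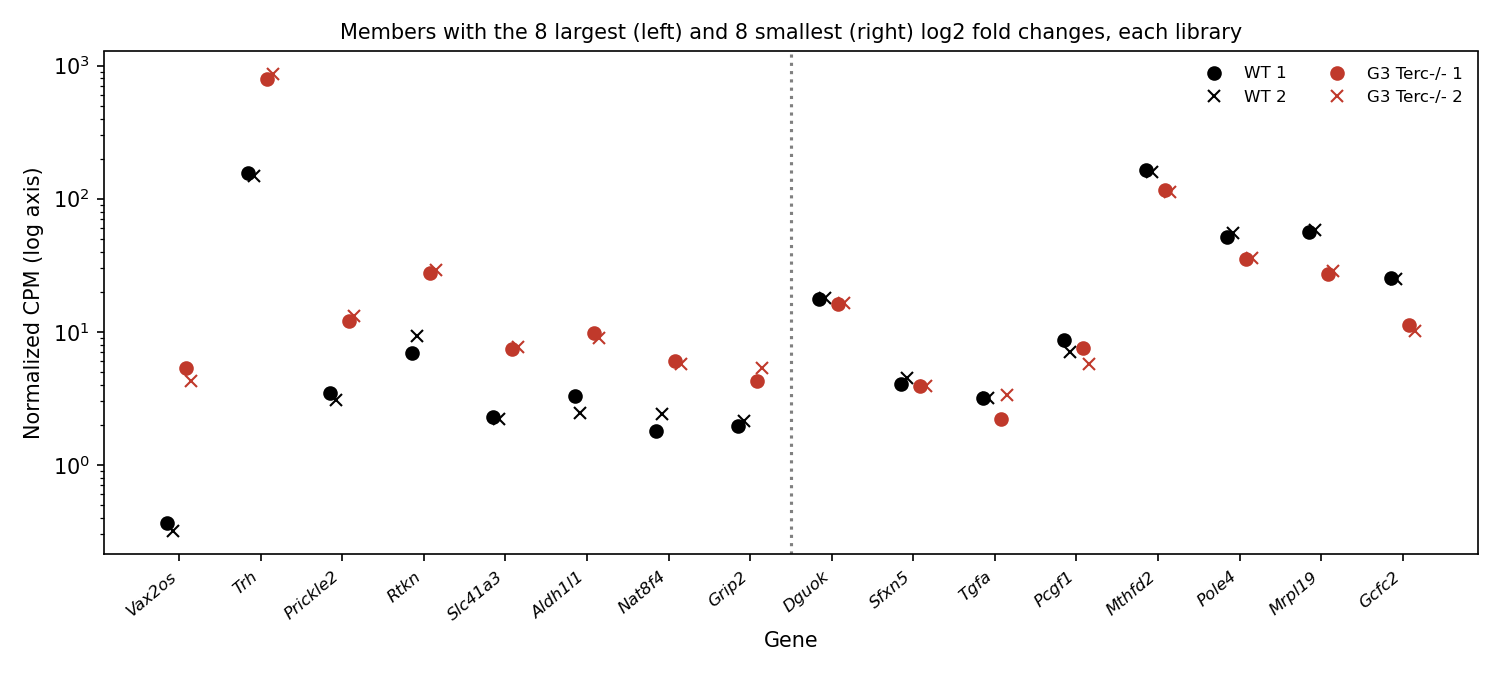
Normalized CPM on a log axis (vertical) in each of the 4 libraries, for the 8 members with the largest and the 8 with the smallest log2 fold changes among members averaging at least 50 counts (horizontal). Black marks are WT and red marks G3 Terc-/- libraries. In Pcgf1 and Tgfa on the right the genotypes overlap.

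Members at adjacent positions differed from each other by a median of 0.35 in log2 fold change over 125 adjacent pairs. For 9 pairs in divergent arrangement, with 5' ends at most 1000 bases apart, the median difference was 0.24. These 9 leave out divergent pairs whose starts overlap further, though their 5' ends also lie within 1000 bases. Left out were Pradc1 and Cct7 (0.87 and 0.45), Grip2 and Ccdc174 (1.22 and 0.52) and Vax2os and Vax2 (3.81 and 2.76). Each of these pairs differed by more than 0.24, so that median holds for the 9 pairs alone. Of the pairs named here after their values were seen, Htra2, a protease of the mitochondrial intermembrane space, and Aup1, of lipid droplets, had log2 fold changes of 0.47 and 0.38, but their exons share 1288 and 753 bases with other genes, so that their reads are uncertain. Xpc and Lsm3, whose 5' ends are 147 bases apart, had 0.32 and 0.57, and Chchd4, an oxidoreductase of the intermembrane space, and Tmem43 had 0.29 and 0.59. Annotated exons overlapped another gene in 49 of the 117 members with known exon length, and the median was 0.51 among these and 0.38 among the 68 without overlap. Part of the reads of each of the 49 is uncertain, also where this is not repeated at the gene.

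By level per length, the 10 most abundant members in WT were Pcbp1, Cnbp, Cct7, Trh, Rab7, Ruvbl1, Mcm2, Hmces, Rpn1 and Mthfd2. Per kb of exon, in CPM, Pcbp1 was at 268 in WT and 361 in G3 Terc-/-. Cnbp, a zinc knuckle protein that binds single-stranded nucleic acids, was at 225 in WT and 277 in G3 Terc-/-. Rab7 was at 97.5 in WT and 138 in G3 Terc-/-, Ruvbl1 at 87.2 in WT and 129 in G3 Terc-/- and Rpn1 at 51.6 in WT and 75.9 in G3 Terc-/-. In CPM, Cnbp had 681 and 684 CPM in WT and 819 and 864 CPM in G3 Terc-/-, and its log2 fold change of 0.30 (standard error 0.05) was smaller than that of Pcbp1. Of these 10 genes, 8 were higher in both G3 Terc-/- libraries than in either WT library, Mthfd2 was lower and Hmces overlapped. Over all genes tested, 35.5% were higher in this way, and the count was fixed in part by the choice of the window.

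The 11 non-coding members were all above 0, with a median log2 fold change of 0.98, beside 0.45 for the 115 protein-coding members. Most had few counts, and the 31 members with a mean under 100 counts had a median of 0.71. The long non-coding RNA 1600020E01Rik, next to Pcbp1 and named after its values were seen, like Mir705, Rab11fip5 and Vmn1r53, had 9.75 and 11.2 CPM in WT and 22.0 and 24.3 CPM in G3 Terc-/- (log2 fold change 1.14, standard error 0.11), more than Pcbp1 at 0.43. Mir705 was counted with 15 and 22 counts in WT and 33 and 34 counts in G3 Terc-/-, but it lies within the gene of Rab11fip5, a Rab11 effector with 20.8 and 20.9 CPM in WT and 36.2 and 34.9 CPM in G3 Terc-/- (log2 fold change 0.77). Poly(A) libraries do not measure mature microRNAs, so these counts cannot be told apart from reads of the host gene. Of the 71 window genes under the minimum, 29 had no count in any library. The window held 15 Vmn1r genes of vomeronasal receptors, 11 of which had no count, and Vmn1r53 was the single member, with 10 and 9 counts in WT and 48 and 32 counts in G3 Terc-/-. These genes are close paralogs, so their counts are uncertain.

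Replicates of the members were about as close as those of other genes. The log2 difference between the WT libraries had a standard deviation of 0.28 over the members and 0.26 over all genes of at least that abundance, and between the G3 Terc-/- libraries 0.24 and 0.26. Single members differed more between replicates, and Fbln2, the matrix protein fibulin 2, was picked as an example after its values were seen. It had 75.4 and 47.3 CPM in WT and 108 and 71.7 CPM in G3 Terc-/-, so that the first library of each genotype was higher than the second and the genotypes overlapped.

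Feeder fibroblast markers also differed between replicates. Of 16 markers, none was at 0 in all libraries, Lum was under 1 CPM in each, and their summed level was 1573 and 1294 CPM in WT and 2166 and 1829 CPM in G3 Terc-/-. Fn1, with the most counts, made up most of this sum with 1138 and 1008 CPM in WT and 1696 and 1506 CPM in G3 Terc-/-, and it is also expressed outside fibroblasts. Without Fn1 the sums were 435, 286, 470.1 and 324 CPM in the same order. Col1a1 had 60.6 and 35.5 CPM in WT and 63.8 and 43.0 CPM in G3 Terc-/- and Acta2 108 and 67.1 CPM in WT and 108 and 67.4 CPM in G3 Terc-/-, each higher in the first library of its genotype. By the same edgeR test, which had no value for Lum, 8 of the markers were higher and 1 lower in G3 Terc-/-. Of all genes tested, 21.7% were higher and 21.8% lower. The part of feeder RNA in the values of the members was not tested, and more cells of a type and more RNA per cell cannot be told apart in such samples.

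Markers of the extraembryonic lineages were checked as well. The 8 primitive endoderm markers summed to 431 and 410.4 CPM in WT and 456 and 413 CPM in G3 Terc-/-, most of it Sparc, with 1 higher and 3 lower in the edgeR test, and Sox17 and Foxa2 were under 1 CPM in each library. The 8 trophoblast markers summed to 342 and 331 CPM in WT and 202 and 199.9 CPM in G3 Terc-/-, with 1 higher and 5 lower. Tfap2c had the most counts, and Elf5 was under 1 CPM in each library and had no test value. Of all genes tested, 21.7% were higher and 21.8% lower. The part of these lineages in the values of the members was not tested.

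Promoter sequences were matched for 104 of the 126 members in the RefSeq promoter table of GRCm38.p6, which holds 250 bases before and 50 bases after a gene start. The first listed promoter of a member had a median of 20 CG dinucleotides and 61.2% G and C, beside 20 and 60.7% for the 11585 genes tested that had one. Searched on both strands, GGGCGG was present in 72.1% of the members' promoters, 64.0% of those of genes tested and 35.9% of all 27025 promoters. TATAAA was present in 4.81%, 7.16% and 14.2%, ATTGG in 39.4%, 38.9% and 37.9%, and TGACGTCA in 3.85%, 3.16% and 1.88%. The members' promoters were thus of the CG-rich kind common among expressed genes, and nothing is drawn from the matches about binding.

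The 250 bases upstream of 3 members are shown because these genes differ in size and direction of the difference, namely Trh (chr6:92244651-92244900, minus strand) with a log2 fold change of 2.44, Mcm2 (chr6:88898781-88899030, minus strand) with 0.49 and Egr4 (chr6:85513590-85513839, minus strand) with -0.80. GENCODE M21 annotates no exon in these stretches. They are written 5' to 3' on the strand of the gene, from RefSeq on GRCm38.p6, with matches to the 4 motifs on either strand in capitals.
Trh: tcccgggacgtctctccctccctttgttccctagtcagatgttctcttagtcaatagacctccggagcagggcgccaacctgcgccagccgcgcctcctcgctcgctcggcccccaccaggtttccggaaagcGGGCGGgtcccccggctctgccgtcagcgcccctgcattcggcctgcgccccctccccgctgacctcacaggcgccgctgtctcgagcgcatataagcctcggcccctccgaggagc
Mcm2: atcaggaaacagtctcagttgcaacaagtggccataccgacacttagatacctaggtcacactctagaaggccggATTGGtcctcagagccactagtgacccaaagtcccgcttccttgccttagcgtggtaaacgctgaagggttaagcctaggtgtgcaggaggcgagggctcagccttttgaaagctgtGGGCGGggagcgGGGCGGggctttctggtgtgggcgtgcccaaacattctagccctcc
Egr4: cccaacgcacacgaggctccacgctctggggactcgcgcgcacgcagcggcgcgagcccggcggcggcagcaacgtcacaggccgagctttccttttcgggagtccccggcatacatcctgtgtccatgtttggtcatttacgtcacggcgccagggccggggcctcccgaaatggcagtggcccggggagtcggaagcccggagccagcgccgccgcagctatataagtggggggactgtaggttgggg

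Trh held 25 CG dinucleotides and 1 match to GGGCGG, and Mcm2 10 and 2 matches, with 1 match to ATTGG. Egr4, the lower gene of the 3, held 28 CG dinucleotides and no match to any of the motifs. A missing match says only that these letters are absent from this stretch.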

How the data were processed

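RNA-seq libraries of WT and G3 Terc-/- ESCs, 2 of each, were compared. The authors deposited raw counts per gene, without normalization, and the submitters' processing notes name Trim Galore, STAR, featureCounts and the mm10 build, with no strand setting. Deposited counts per TE copy were not used here. Of 24116 NCBI gene identifiers, 24061 were matched to the RefSeq gene table of GRCm38.p6, which gave positions. Exons came from GENCODE M21, so that exon overlaps hold for that annotation, while the counts are per NCBI gene.

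Counts were fitted with edgeR 4.0.16 in R 4.3.3 (filterByExpr, TMM, quasi-likelihood test on genotype alone, Benjamini-Hochberg adjustment over 14896 genes), and all 126 members passed the filter. The cutoffs of a fold change of 2 with P of 0.05 followed the study. Replicates are separate libraries of 1 line, so p-values measure only the spread between these libraries. The fit was tested on simulated counts. Alternatives were DESeq2 1.42.0, other filters and scalings, a replicate block, other window edges and each library left out. Figures were drawn with matplotlib 3.10.9.

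Named were Terc, Hk2, Tet3, group members (the highest, the lowest, the highest level per length and those with complex partners), the 8 largest and 8 smallest fold changes among members with a mean of at least 50 counts, the 10 highest levels per length, 5 genes on each side of each edge, complex partners and markers. Members and lists were chosen with earlier results of these data known.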

Additional observations from a re-analysis of the deposited data

How the results depend on the processing

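The median log2 fold change of the members, 0.49, was 0.45 to 0.51 with each library left out in turn, 0.46 among members with a mean of at least 50 counts and 0.38 over the 68 members with a known exon length and no overlap, which leaves out the 49 overlapping members and also the 9 without exon length, with the same sign throughout. The cause of the last difference was not tested. From Sema4f on, an edge chosen after seeing the data, the median was 0.51, with 2 members counted as lower by adjusted p and 0 by the fold cutoff, in place of 5 and 2, since that edge leaves out Gcfc2 and Mrpl19, counted as lower in both ways, and Pole4, counted by adjusted p alone. The summed level was higher by 0.57 on the log2 scale in G3 Terc-/-, by 0.47 without the 10 members with the most counts and, as an alternative chosen after seeing the data, by 0.48 without Trh. Leaving out single libraries gave 0.56 to 0.58.

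DESeq2 called 2076 genes higher across the genome in place of 3238 by adjusted p, and the cause was not tested. A mean of at least 50 counts left 285 higher and 271 lower genes past the fold cutoff in place of 704 and 466. Of the 704 and 466, 529 and 243 were genes with a mean under 100 counts. Leaving out each library gave 70 to 78 members counted as higher and 4 as lower each time, while the calls across the genome also moved, to 2339 to 3070 higher and 2352 to 3109 lower in place of 3238 and 3241. Among complex partners it gave 7 to 17 higher and 12 to 25 lower, above and below the 15 and 22 with all libraries, and the cause was not tested. The lone library was assumed to vary like the others. Partners outside chromosome 6, a choice made after seeing the data, gave 15 and 18.

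Replicate numbers were shared between the genotypes, but deviations of same-numbered libraries had a correlation of 0.0617 over genes, with only 2 pairs. With the replicate number as a block, 87 members were counted as higher and 5 as lower, beside 3551 higher and 3583 lower genes across the genome, and the median was 0.49. Of the 88 members counted by adjusted p, 69 were so under every alternative fit. The sign changed under some fit in 13 members, none of them among the 88. Low counts limit the precision of the 31 members with a mean under 100.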
